A study of Mus musculus with 4 samples.

Results

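The genes described here are the C-type lectin and galectin genes of mouse microglia, the resident macrophages of the brain. They were chosen by symbol, as every listed gene named Clec with a number and letter or Lgals with a number, together with Lgals3bp and Lgalsl. This gave 44 of the 56832 genes in the count tables: 34 C-type lectin symbols, 8 galectins and 2 genes that carry a galectin name without being one of the sugar-binding galectins. RNA was sequenced in 4 libraries of 1 group, microglia of female C57BL/6 mice taken from primary glial culture, with no transgene, deletion or drug named in the labels. The cells were freed with trypsin, sorted by flow cytometry and lysed in TRIzol LS. Which antibodies and gates were used is not stated in the labels, and the hematopoietic and co-culture groups of the study were not analysed here. The labels do not say that the libraries came from separate cultures or animals, so each SD measures the spread between libraries, which may be technical. The microglia markers Cx3cr1, Tmem119, P2ry12, Fcrls, Csf1r, Sall1 and Aif1 were each at 1 CPM or more in every library. CPM is the count of a gene divided by the total of its library on a common scale, and TPM also divides by exon length, so that different genes can be set beside each other.

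Lectins are proteins that read sugars. C-type lectin receptors carry a fold that in its classical form holds a sugar through calcium, although many members of the family bind proteins, lipids or crystals instead. Activating members couple through an adaptor with an ITAM motif, such as Fcer1g or Tyrobp, or through a motif of their own, to the kinase Syk and the Card9, Bcl10 and Malt1 complex, while inhibitory members carry an ITIM motif that recruits phosphatases. Galectins are soluble proteins that bind beta-galactosides, leave the cell without a signal peptide, and cross-link glycoproteins at the surface or bind damaged endosomes from the cytosol. In the brain, galectin-3 and Clec7a are known as markers of microglia around plaques and in degenerating tissue.

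Of the 44 members, 17 were on, meaning 1 CPM or more in all 4 libraries; 20.6% of all listed genes and 51.8% of protein-coding genes met the same level. Another 13 members were silent, with 0 counts in all 4 libraries, a state shared by 61.0% of all listed genes and 28.5% of protein-coding genes. The remaining 14 had a few counts in at least 1 library and are called low. Among the 40 members typed as protein-coding in GENCODE M21, 16 (40.0%) were on and 10 (25.0%) silent, both below the share of all protein-coding genes. The 4 others were Clec7a, typed there as a polymorphic pseudogene, Clec2f and Clec2j, typed as pseudogenes, and Clec2m, which had no entry. By family, 11 of 34 C-type lectins, 4 of 8 galectins and both galectin-named genes were on, and 12 C-type lectins and 1 galectin were silent. The members that were on had a median of 90.7 TPM, against 21.4 TPM for all genes that were on. Over the 43 members with a known length the median was 0.240 TPM, against 1.71 TPM for protein-coding genes. Together the members took 0.162% ± 0.0034 (SD, n = 4) of the gene counts, with at least 37965 counts in each library. At the border between on and low, the lowest on value was 1.19 CPM, for Clec4a1 in replicate 2, and the highest low value was 0.768 CPM, for Lgals4 in replicate 2.

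**Figure D1:**
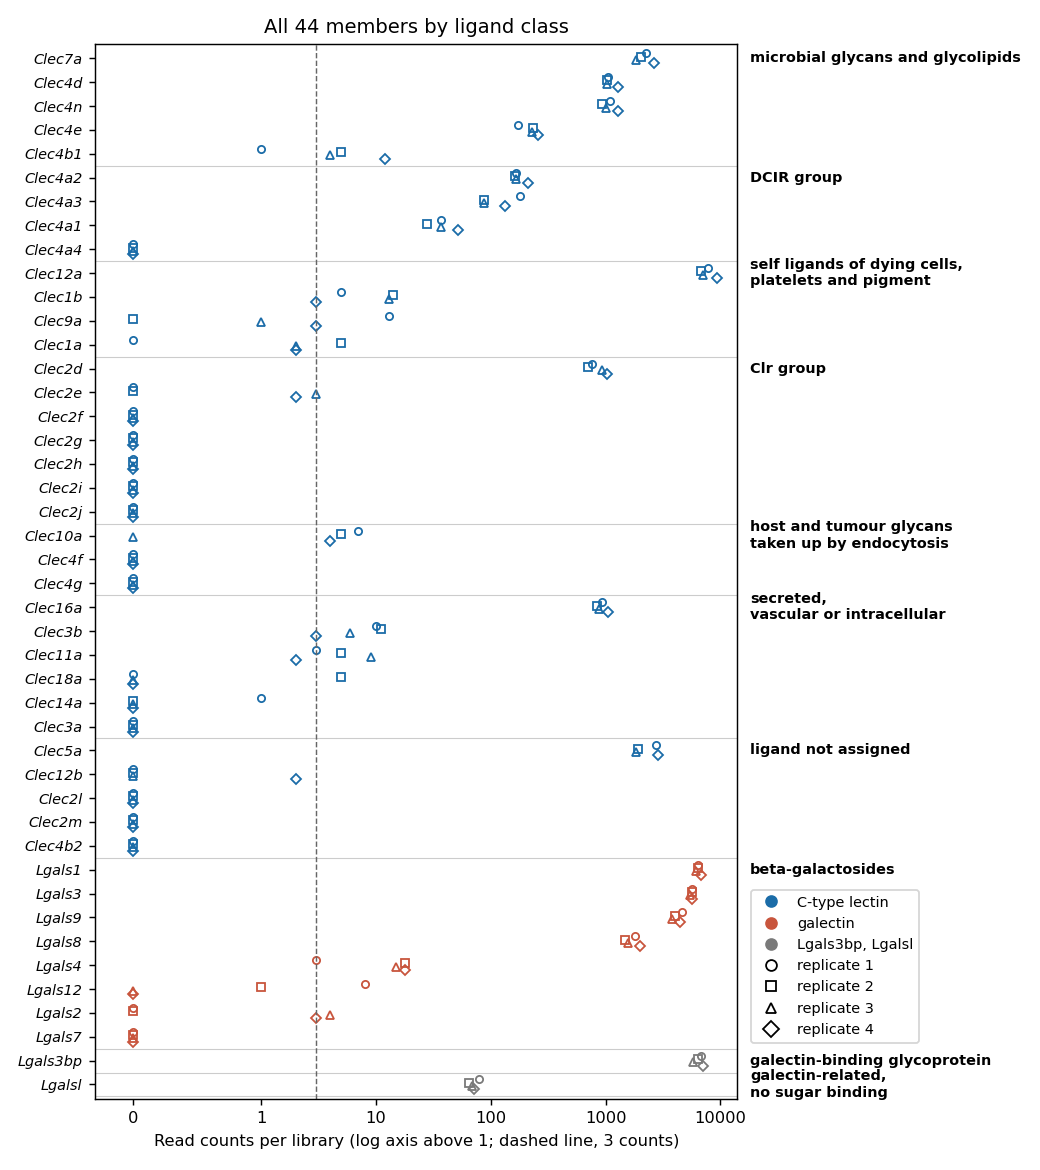
Read counts of all 44 members in each of the 4 libraries, grouped by ligand class. The horizontal axis is the count per library (logarithmic above 1), each symbol is 1 library, the dashed line marks 3 counts, and the 17 members that were on, from Clec4a1 and Lgalsl upward, sit to the right of the 14 low and 13 silent ones.

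The galectins were the most abundant class per length. Their summed level was 1620, 1776, 1737 and 1563 TPM in replicates 1 to 4, against 689, 679, 712 and 758 TPM for all C-type lectins together. The ratio of the sums was 2.37 ± 0.232 (SD, n = 4) and lay above 2 in every library, but it was 1.07 when counts were not divided by gene length and 1.39 without the highest gene of each class. Lgals1, a galectin that pairs with itself to cross-link glycoproteins, was the highest member at 896, 1013, 992 and 891 TPM in replicates 1 to 4 (948 ± 63.5, mean ± SD, n = 4). That mean exceeded the mean of 99.4% of protein-coding genes, and Lgals1 made up 56.6% ± 0.869 (SD, n = 4) of all galectin TPM. Lgals3, the galectin with a collagen-like tail that lets it form larger assemblies, was at 387, 435, 422 and 361 TPM (401 ± 33.7). Replicates 2 and 3 were above replicates 1 and 4 for both of these genes, and the ratio of Lgals1 to Lgals3 stayed between 2.32 and 2.47.

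The other galectins that were on each hold a pair of sugar-binding domains in 1 chain. Lgals9, a ligand of the receptor Tim-3, was at 274, 269, 259 and 245 TPM (262 ± 12.7), highest in replicate 1 and lowest in replicate 4. Lgals8, which marks broken endosomes for autophagy, was at 62.5, 57.3, 62.0 and 64.3 TPM (61.5 ± 3.01). Its range and that of Lgals9 did not overlap, and Lgals9 was 4.26 ± 0.371 times Lgals8. In GENCODE M21 a gene on the opposite strand, Heatr1, overlaps 4.20% of the exon bases of Lgals8, and reads there may not have been told apart.

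The rest of the galectins were near or at 0. Lgals4, known from the gut epithelium, had 3, 18, 15 and 18 counts in replicates 1 to 4. Lgals2, also known from the gut, had 0, 0, 4 and 3, and Lgals12, known from fat cells, had 8, 1, 0 and 0. Lgals4 was the only one of the 3 with counts in every library. Lgals7, known from stratified epithelium, had 0 counts in all 4 libraries. A count of 0 allows up to 3 counts, or 0.105 to 0.129 CPM depending on the library, and this limit covers counting error only. Lgals2 shares 6.42% of its exon bases with Cdc42ep1 on the opposite strand.

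Lgals3bp and Lgalsl differed widely in level. Lgals3bp encodes a secreted, heavily glycosylated protein that galectins bind, and was at 302, 322, 296 and 295 TPM (304 ± 12.5). Its level was 0.760 ± 0.0497 (SD, n = 4) of that of Lgals3, below it in all 4 libraries. Lgalsl encodes a galectin-related protein that lacks sugar binding, and at 2.44, 2.24, 2.40 and 2.04 TPM (2.28 ± 0.184) it was the lowest of the members that were on.

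**Figure D2:**
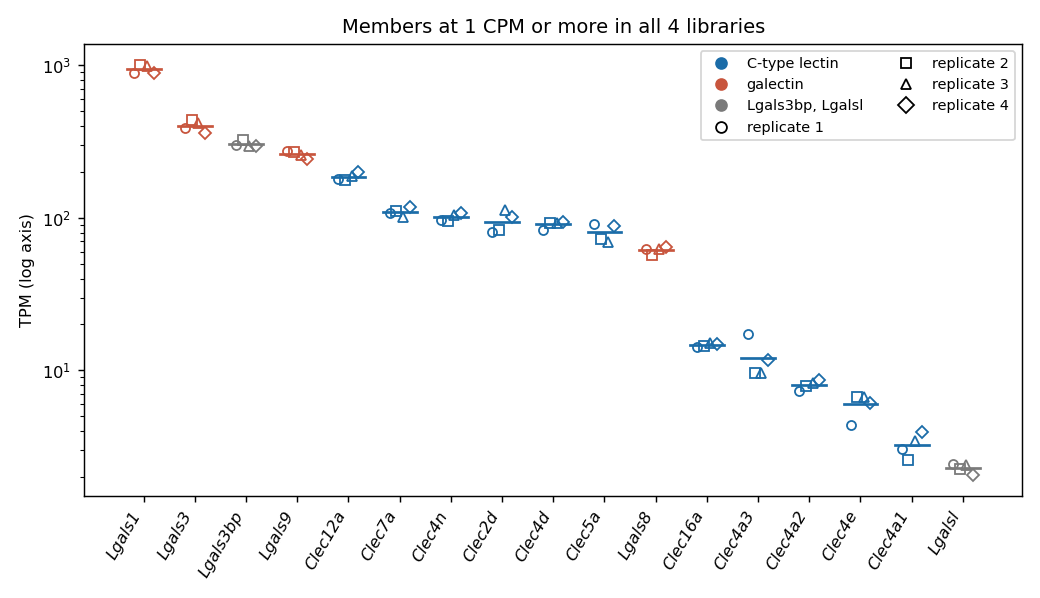
Level of the 17 members that were on, in TPM on a logarithmic axis, ordered by their mean. Each symbol is 1 library, the bar is the mean of 4 libraries, and colour gives the family; the order runs from Lgals1 at 948 TPM to Lgalsl at 2.28 TPM.

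The enzymes listed for galectin-ligand glycans and the glycoproteins that galectins are known to bind were on throughout. By the same measure 51.8% of protein-coding genes were on. Not every listed enzyme makes galectin ligands, since the list includes the sialyltransferases St6gal1 (119 ± 5.71 TPM) and St3gal1 (49.4 ± 4.66 TPM), which cap glycans. All 14 enzymes were on, with a median of 83.7 TPM against 21.4 TPM for all genes that were on. The highest were B4galt1, which adds the galactose that galectins read, at 217 ± 5.32 TPM, and Mgat2 at 172 ± 3.83 and Mgat1 at 140 ± 8.04 TPM, which start the branches of complex N-glycans (SD, n = 4). All 13 glycoprotein partners were on, with a median of 237 TPM. Lamp1, a lysosomal membrane protein, led them at 2064 ± 56.2 TPM, followed by the endocytic receptor Lrp1 at 824 ± 69.1 and the lipid receptor Trem2 at 778 ± 13.4 TPM.

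Among the receptors placed under microbial glycans and glycolipids 4 of 5 were on, against 51.8% of protein-coding genes. Their summed level was 308 ± 14.1 TPM. The classes were assigned with earlier results of these data known, and Clec1a, a low receptor for fungal melanin, was placed in another class. Clec7a (Dectin-1), the receptor for fungal beta-glucan with a Syk-coupling motif of its own, was at 108, 111, 101 and 118 TPM (109.7 ± 7.28), highest in replicate 4. Clec4n (Dectin-2), which binds alpha-mannans and signals through Fcer1g, was at 97.4, 95.3, 104 and 107 TPM (101 ± 5.48). Clec4d, also called MCL, binds mycobacterial cord factor and was at 83.2, 92.7, 92.8 and 94.1 TPM (90.7 ± 5.03). The ranges of Clec7a and Clec4n overlapped, while Clec4n was above Clec4d in all 4 libraries without overlap. That order turned with the length of the longest transcript, a choice made after seeing the data, which gave Clec4d 83.0 and Clec4n 77.3 TPM. Clec4e (Mincle), which pairs with Clec4d and binds the same glycolipid and a protein of dying cells, was far lower at 4.39, 6.71, 6.65 and 6.12 TPM (5.97 ± 1.09). Clec4d was 15.5 ± 2.40 times Clec4e and Clec4n was 17.4 ± 3.48 times Clec4e, and the ratio was highest in replicate 1 in both cases, where Clec4e was lowest. Clec4b1 (DCAR), a receptor for mycobacterial phosphatidylinositol mannosides, had 1, 5, 4 and 12 counts.

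The DCIR group, relatives of an inhibitory receptor of dendritic cells, had 3 of 4 members on and a summed level of 23.3 ± 3.37 TPM. Clec4a3 was at 17.4, 9.56, 9.65 and 11.8 TPM (12.1 ± 3.67), with replicate 1 well above the other libraries. Clec4a2 (DCIR), which carries an ITIM, was at 7.27, 7.93, 8.26 and 8.57 TPM (8.01 ± 0.557). Clec4a1 was at 3.02, 2.59, 3.46 and 3.95 TPM (3.25 ± 0.582), highest in replicate 4 and lowest in replicate 2. Clec4a4, known from a subset of dendritic cells, had 0 counts in all libraries. These genes are close relatives, and reads that fit more than 1 of them may have been dropped, which leaves their values uncertain.

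Of the 4 members grouped under self ligands of dying cells, platelets and pigment, Clec12a alone was on. The grouping is loose, since the pigment is fungal melanin and platelets are the cells that carry Clec1b. Clec12a, an inhibitory receptor for uric acid crystals, was at 180.3, 178, 187 and 200.5 TPM (187 ± 10.03), the highest of the C-type lectins in every library. It made up 26.3% ± 0.119 (SD, n = 4) of all C-type lectin TPM and was 1.70 ± 0.109 times Clec7a. The other 3 were low. Clec9a, a receptor for the actin of dead cells on cross-presenting dendritic cells, had 13, 0, 1 and 3 counts. Clec1b (CLEC-2), the podoplanin receptor of platelets, had 5, 14, 13 and 3, and Clec1a, a receptor for fungal melanin on endothelium, had 0, 5, 2 and 2.

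Clec5a and Clec2d were on at a similar level from classes that were otherwise almost empty. Clec5a, which signals through the adaptor Tyrobp and was given no ligand class here, was at 90.9, 72.5, 69.3 and 88.8 TPM (80.4 ± 11.0), with replicates 1 and 4 above replicates 2 and 3. Its mean was 0.732 ± 0.0829 (SD, n = 4) of that of Clec7a. Clec2d (Clr-b), a surface ligand that inhibits natural killer cells through Klrb1b, was at 80.4, 83.4, 112 and 101 TPM (94.3 ± 15.0), with replicates 3 and 4 above replicates 1 and 2. Of the 7 members of the Clr group, Clec2d was on, Clec2e was low with 0, 0, 3 and 2 counts, and Clec2f, Clec2g, Clec2h, Clec2i and Clec2j were silent. Clec12b had 0, 0, 0 and 2 counts, and Clec2l, Clec2m and Clec4b2, which like Clec5a were given no ligand class, were silent.

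The members named for the fold but secreted, vascular or intracellular were on for 1 of 6. Clec16a, an intracellular protein of endosomes and mitophagy rather than a surface receptor, was at 14.2, 14.4, 15.1 and 14.9 TPM (14.7 ± 0.419), with the smallest SD of log2 CPM (0.04) of the members that were on. Clec3b (tetranectin) had 10, 11, 6 and 3 counts, Clec11a, a secreted growth factor, had 3, 5, 9 and 2, and Clec18a had 0, 5, 0 and 0. Clec14a, an endothelial surface protein, had 1, 0, 0 and 0, and Clec3a, known from cartilage, was silent. Of the receptors that take up host and tumour glycans none was on. Clec10a (MGL1), which binds galactose and N-acetylgalactosamine, had 7, 5, 0 and 4 counts, while Clec4f of Kupffer cells and Clec4g of liver sinusoidal endothelium had 0 counts.

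Ordered by mean TPM, Lgals1, Lgals3, Lgals3bp, Lgals9, Clec12a and Clec7a followed each other with no overlap between the ranges of neighbours. From Clec7a through Clec4n, Clec2d, Clec4d and Clec5a each gene overlapped the next, so neighbours in this stretch did not differ beyond the spread between libraries. Lgals8 and Clec16a did not overlap with each other or with Clec5a, Clec16a overlapped Clec4a3, and Clec4a2, Clec4e, Clec4a1 and Lgalsl then followed without overlap. With the length of the longest transcript in place of all exons, Lgals1 was at 810 TPM, and some neighbours came closer together. Lgals3bp was then at 281, Lgals9 at 267 and Clec12a at 242 TPM, and Clec5a was at 62.4 beside Lgals8 at 60.4 TPM. The separations between these neighbours therefore depend on the length used, and ranges were not compared with the longest transcript. All 17 members that were on were still at 1 TPM or more in every library.

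All 16 genes listed for the signalling of C-type lectin receptors were on, against 51.8% of protein-coding genes. Their median was 163 TPM, against 21.4 TPM for all genes that were on. The adaptors Tyrobp and Fcer1g were at 4672 ± 360.1 and 2823 ± 96.8 TPM, and the phosphatase Ptpn6, which ITIM receptors recruit, was at 789 ± 21.01 TPM (SD, n = 4). Outside the symbol rule, 35 symbols were listed for genes with the C-type lectin fold, and 34 matched. The entry Attrn matched no symbol as written, so that gene was not looked at. Of the 34, 7 were on, 11 low and 16 silent. That share on was near the 20.6% of all listed genes and below the 51.8% of protein-coding genes. The highest were Cd72, an inhibitory receptor best known from B cells, at 613 ± 25.8 TPM, the mannose receptor Mrc1 at 295 ± 30.9 TPM and the complement-linked receptor Cd93 at 43.0 ± 4.24 TPM.

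The members sit mostly on chromosome 6, which holds 26 of the 44 and 10 of the 17 that were on. In the gene order of RefSeq on GRCm38.p6, 23 of these lie in 3 blocks. The block of Dectin-2 relatives runs Clec4a1, Clec4a3, Clec4a4, Clec4b1, Clec4a2, Clec4b2, Clec4n, Clec4d, Clec4e with no other protein-coding gene between them. Of these 9, 6 were on, 1 low and 2 silent, and both silent genes stood between genes that were on or low. The block of Clr genes holds 8 members from Clec2j to Clec2m, of which Clec2d was on, Clec2e beside it low and 6 silent. The block of Dectin-1 relatives runs Clec12a, Clec12b, Clec1b, Clec9a, Clec1a, Clec7a; the first and the last were on and the 4 between them low. In GENCODE M21, Clec1b and Clec9a overlap on the same strand, over 3.61% of the exon bases of Clec1b and 5.59% of those of Clec9a.

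**Figure D3:**
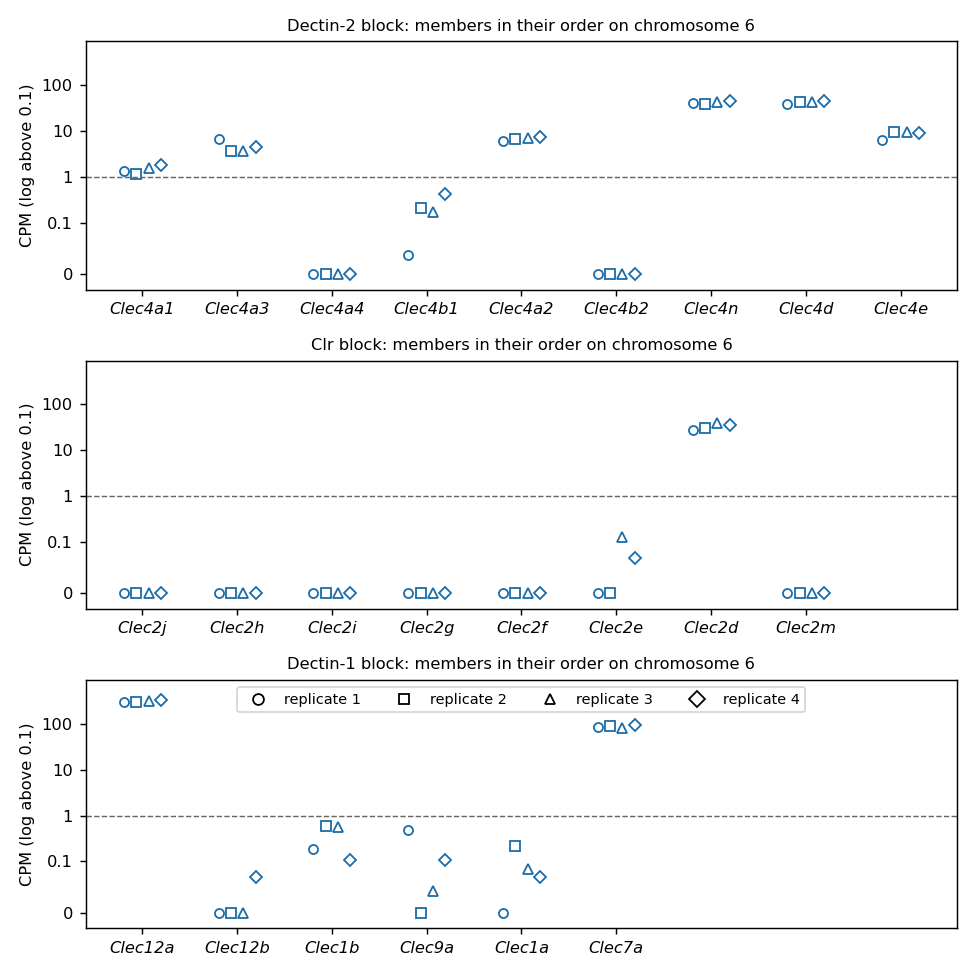
Level of the members in the 3 blocks of chromosome 6, in their order along the chromosome (spacing not to scale), in CPM on an axis that is logarithmic above 0.1. Each symbol is 1 library and the dashed line marks 1 CPM; genes that were on stand beside low or silent neighbours in all 3 blocks.

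The 250 bases before the start site are shown for 4 genes of the Dectin-1 block, those at the outer ends that were on and a pair between them that were low, so that on and low neighbours can be read side by side. The sequences are from RefSeq on GRCm38.p6, 5′ to 3′ on the strand of the gene, with each GAGGAA or its reverse complement in capitals. GAGGAA is the core of the site of PU.1, a transcription factor of myeloid cells. The window of Clec12a is chr6:129349994-129350243 on the plus strand, that of Clec7a chr6:129472780-129473029 on the minus strand (the first of 2 entries), that of Clec1b chr6:129397047-129397296 on the plus strand and that of Clec9a chr6:129408612-129408861 on the plus strand.
Clec12a: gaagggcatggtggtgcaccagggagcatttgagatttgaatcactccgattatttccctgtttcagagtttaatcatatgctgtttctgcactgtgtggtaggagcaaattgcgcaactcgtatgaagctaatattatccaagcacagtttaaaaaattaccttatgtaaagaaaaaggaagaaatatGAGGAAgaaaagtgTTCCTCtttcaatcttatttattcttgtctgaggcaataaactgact
Clec7a: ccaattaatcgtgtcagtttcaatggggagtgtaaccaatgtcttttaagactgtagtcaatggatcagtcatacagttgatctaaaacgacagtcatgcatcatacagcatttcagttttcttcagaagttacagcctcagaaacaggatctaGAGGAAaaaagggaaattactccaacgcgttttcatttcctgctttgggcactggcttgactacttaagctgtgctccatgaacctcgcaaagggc
Clec1b: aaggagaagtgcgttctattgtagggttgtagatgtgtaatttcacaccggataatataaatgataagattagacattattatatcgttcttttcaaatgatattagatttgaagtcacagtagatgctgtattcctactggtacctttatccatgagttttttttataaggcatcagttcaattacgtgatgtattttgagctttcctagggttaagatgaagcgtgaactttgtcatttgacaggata
Clec9a: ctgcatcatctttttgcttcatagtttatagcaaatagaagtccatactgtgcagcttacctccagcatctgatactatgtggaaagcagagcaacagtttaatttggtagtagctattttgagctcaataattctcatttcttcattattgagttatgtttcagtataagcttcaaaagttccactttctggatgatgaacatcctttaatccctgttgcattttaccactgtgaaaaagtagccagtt
Clec12a held 2 matches and Clec7a 1, while Clec1b and Clec9a held 0. Motifs were searched on both strands in windows of 300 bases, from 250 before to 50 after the start, for the 34 of 44 members found in the table. GAGGAA was present for 9 of 15 members that were on, 5 of 10 low and 3 of 9 silent members, and in 27.8% of the 20968 promoters of listed genes. The on members with it were Clec12a, Clec16a, Clec4a1, Clec4d, Clec4e, Clec5a, Clec7a, Lgals3bp and Lgals9. Over all listed genes its share was 26.7% where the gene was on, 27.9% where it was low and 29.2% where it was silent. GAGGAAGT, a longer form that contains GAGGAA, was in 3.22% of all promoters and in 0 of the members. GAAANNGAA, a loose form of the site of interferon regulatory factors, was in 8.28% of all promoters and in 3 on (Clec2d, Clec4d, Lgals9), 4 low and 1 silent member. TGANTCA of AP-1 was in 7.53% of all promoters and 2 on, 2 low and 2 silent members, and TTGCNNAA of C/EBP in 10.4% of all promoters and 3 on, 1 low and 1 silent member. CACGTG, the E-box, was in 7.68% of all promoters and in 0 members. These matches describe letters in a window and were not tested as binding sites.

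Spread between the libraries was tested for each member. The test compared the deviance of each gene around 1 mean with that of genes of like abundance (edgeR, trended dispersion, Benjamini-Hochberg adjustment). Of the 17 members tested, 0 passed an adjusted p of 0.05, 2 were under an unadjusted p of 0.05 and 0 were dispersion outliers in DESeq2, against 143 of 12879 genes (1.11%) that passed and 875 that were under an unadjusted p of 0.05 in edgeR. Clec5a had an unadjusted p of 0.0147 and an adjusted p of 0.407 in edgeR, and Clec2d an unadjusted p of 0.0471 and an adjusted p of 0.714. The SD of log2 CPM was 0.21 for Clec5a and 0.22 for Clec2d, where tested genes of like abundance had medians of 0.08 and 0.09 and 95th percentiles of 0.20 and 0.22. It was 0.40 for Clec4a3, 0.28 for Clec4e and 0.25 for Clec4a1, where genes of like abundance had medians of 0.22, 0.16 and 0.40. Clec4a3 was at 6.70, 3.75, 3.79 and 4.64 CPM, and its adjusted p in edgeR was 0.99991 with the trended dispersion. With a common dispersion, a setting in which 532 genes passed, its adjusted p in edgeR was 0.0747. Without replicate 1 its SD of log2 CPM was 0.18.

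**Figure D4:**
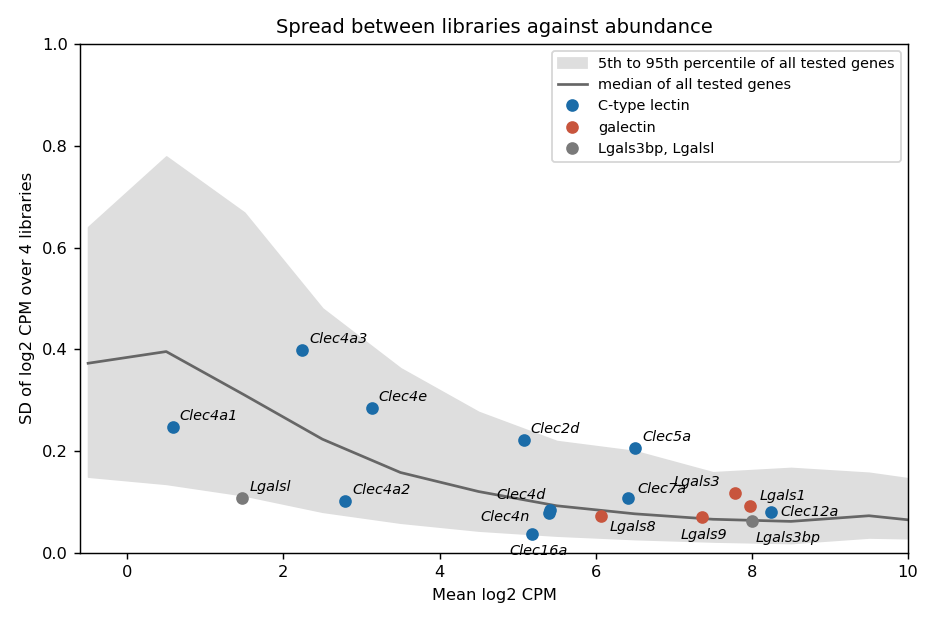
SD of log2 CPM over the 4 libraries against mean log2 CPM, for the 17 members tested (points) and all tested genes (line, median; shade, 5th to 95th percentile in bins of abundance). Most members lie inside the shade, some of them well above or below the median line. Clec5a and Clec2d lie at the upper edge of the shade and Lgalsl at its lower edge.

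Replicate 4 held the highest CPM for 7 of the 17 members that were on, 6 of them C-type lectins. It held the lowest for 4, all of them galectin or galectin-named genes. Of the 17, 11 are C-type lectins, and the split by family was not tested. For Lgals3bp, 1 of the 4, replicate 4 was nearly level with replicates 1 and 3 (249.5, 250.1 and 249.9 CPM). Over all genes that were on, replicate 4 was highest for 22.6% and lowest for 21.3%. Replicate 1 was lowest for 7 of the 17 members, against 34.5% of all genes that were on. Replicates 2 and 3 were the high libraries for Lgals1 and Lgals3 and the low ones for Clec5a.

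**Figure D5:**
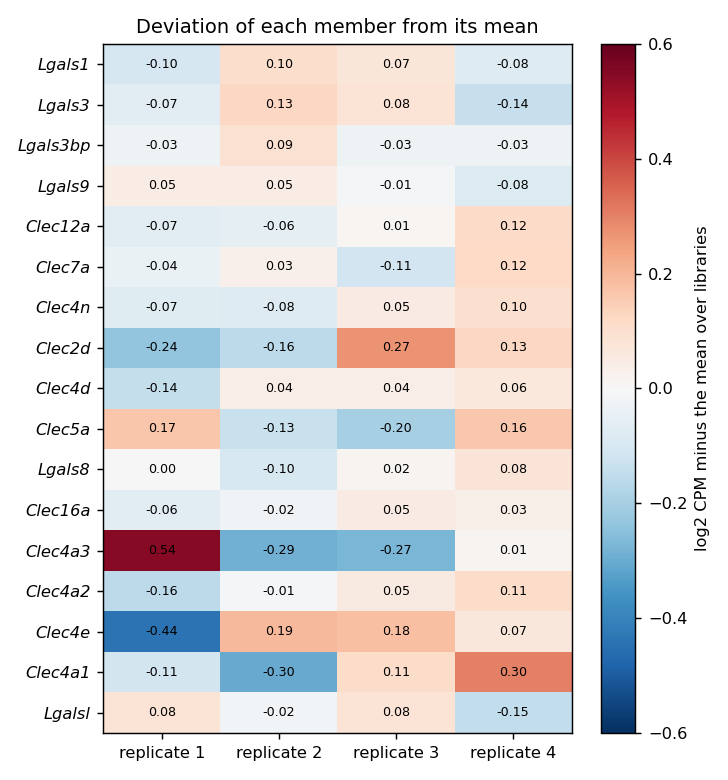
Deviation of each of the 17 members that were on from its own mean over 4 libraries, in log2 CPM (rows, members in order of mean TPM; columns, replicates; red above and blue below the mean). Clec4a3 and Clec4e deviate most, in opposite directions in replicate 1, and 0 of the 17 passed the test of spread.

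Markers of other cells were highest in the same libraries as some members. The 8 astrocyte markers summed to 81.5, 131, 137 and 112 TPM in replicates 1 to 4, with 7 on, 1 low and none at 0, and the 10 fibroblast and mural markers to 101, 130.1, 158 and 105 TPM, with 7 on, 3 low and none at 0. The second sum was mostly Acta2 (67.0, 88.0, 113 and 70.1 TPM) and Tagln (21.9, 29.9, 37.7 and 25.2 TPM), genes of contractile cells. The collagen and matrix genes of that list were lowest in replicate 3, with Col1a1 at 3.30, 3.62, 1.20 and 2.14 TPM, Dcn at 1.96, 2.00, 0.698 and 1.70 TPM, and Col1a2, Col3a1 and Lum also lowest there. The astrocyte sum, Acta2 and Tagln were higher in replicates 2 and 3 than in replicates 1 and 4, as were Lgals1 and Lgals3, which many cell types make. In the astrocyte list, Gfap (32.5, 61.9, 61.5 and 45.4 TPM), Slc1a3, Slc1a2, Aldh1l1, Aldoc and Gja1 had this order. Aqp4 (16.3, 18.7, 19.2 and 19.8 TPM) and S100b (0.343, 1.46, 0.588 and 1.67 TPM) were instead highest in replicate 4. The part of other cells in the galectin values was not tested. Gfap (edgeR adjusted p = 9.86e-06) and Slc1a3 (0.0151) of the astrocyte list, Acta2 (0.00412) of the fibroblast list and P2ry12 (0.00102) of the microglia list passed the test of spread. P2ry12 went the other way, at 319, 246, 217 and 329 TPM. It was lower in replicates 2 and 3, where Lgals1 and Lgals3 were higher, and the cause was not tested. In bulk RNA, fewer cells of a type and less RNA per cell cannot be told apart. The 8 endothelial markers summed to 11.1 to 15.5 TPM, with 3 on (Kdr at a mean of 6.28, Egfl7 at 4.72 and Vwf at 0.627 TPM), 3 low, and Tek and Emcn at 0. The 9 dendritic cell markers summed to 8.92 to 14.1 TPM, with 3 on (Batf3 at a mean of 5.45, Itgax at 1.99 and Zbtb46 at 1.93 TPM), 4 low, and Ccr7 and Cd209a at 0. The 9 monocyte and neutrophil markers summed to 67.1 to 74.4 TPM, nearly all from Csf3r, and 6 of them, including Ly6c2, S100a9 and Ly6g, were at 0. The 7 lymphocyte and natural killer cell markers summed to 0.0382 to 0.165 TPM, with none on. The 8 Kupffer cell and border macrophage markers summed to 606 to 664 TPM, the largest sum among these lists of other cells. Of them 3 were on (Pf4 at a mean of 309, Mrc1 at 295 and Cd5l at 22.4 TPM), 2 were low, and Vsig4, Cd163 and Lyve1 were at 0. The cells of these lists include those in which Clec9a, Clec10a, Clec14a and Clec4f are otherwise known.

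Of the genes listed for receptors and binding partners of the Clr lectins and of CLEC-2, only Pdpn, which encodes podoplanin, was on. Klrb1a, Klrb1b and Klrb1f belong to a family of natural killer cell receptors, some of which bind Clr proteins, and had 0 counts. Klrb1c of the same family had 0, 2, 1 and 0. Pdpn, the ligand of Clec1b, was at 30.4, 48.0, 56.6 and 39.1 TPM (43.5 ± 11.3, SD, n = 4), and its spread passed the test (edgeR adjusted p = 0.0463). It was high in replicates 2 and 3, the libraries in which the astrocyte sum, Acta2 and Tagln were also high while Col1a1 and Dcn were lowest in replicate 3, and the part of other cells in it was not tested. In edgeR 0 of the 16 signalling genes, 0 of the 14 glycan enzymes, 0 of the 13 galectin partners and 0 of the 7 tested genes with the fold outside the symbol rule passed the test of spread.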

How the data were processed

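The authors deposited raw gene counts, 1 file per library, made on mm39 with HTSeq 0.11.2 after STAR 2.7.10a and SAMtools 1.16.1, per the submitters' processing notes. The annotation, the use of strand and the treatment of overlapping genes in counting are not given in the sources used. Gene counts summed to 27012285, 23436924, 23212183 and 28469813 in replicates 1 to 4; the 5 summary lines (11.8% ± 0.159 of reads, SD, n = 4) were left out. TPM was computed from the counts and the merged exon length in GENCODE M21, which is on GRCm38 and served for lengths and types; 43 of 44 members matched by symbol, as did 89.1% of symbols with 98.8% of counts. No pair of libraries was identical, and each pair differed by more than counting noise (chi-square over degrees of freedom 5.43 to 14.6).

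With 1 group there is no contrast. Spread was tested in edgeR 4.0.16 (R 4.3.3) with 1 mean per gene, TMM, filterByExpr and trended dispersion, the deviance being set against a chi-square distribution, with Benjamini-Hochberg adjustment over all genes; the script was tested on simulated data. Alternatives were a common dispersion, DESeq2 1.42.0 size factors and dispersion outliers, no filter, other levels for on and silent, CPM for TPM, and leaving out each replicate.

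The members, ligand classes, lists and tests were chosen with earlier results of these data known; ligand classes follow textbook function. Every member is named, and of each pathway list the 3 genes with the highest mean TPM and those past the test; of the marker lists, genes past the test and defining markers at 0. Csf3r, Mrc1, Pf4, Cd5l, St6gal1 and St3gal1 were named after their values were seen. So were the astrocyte markers other than Gfap and Slc1a3, and the collagen, matrix and contractile genes other than Acta2. The same holds for the endothelial and dendritic cell markers that were on. Protein motifs were not analysed here, and 1 marker gene is not reported here.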

Additional observations from a re-analysis of the deposited data

Results flagged for a closer look

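Among 19 results tested for a library far from the other 3, 2 were picked out; chance picks out about 1 group in 20, so this number is close to what chance gives. Lgals3bp was at 250.1, 271, 249.9 and 249.5 CPM in replicates 1 to 4, with replicate 2 the highest and its gap to the nearest library 0.974 of the whole range. The edgeR test of spread gave Lgals3bp an adjusted p of 0.99991. Clec4d was at 38.7, 43.9, 43.9 and 44.7 CPM, with replicate 1 the lowest and a gap of 0.864 of the range, and its adjusted p in edgeR was also 0.99991.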

How the results depend on the processing

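The number of members on was 17 at 0.5 CPM, at 1 CPM in at least 1 library, at 1 TPM and with each replicate left out in turn, and 14 at 5 CPM. The number silent was 15 where at most 3 counts over all libraries were allowed, and 13 to 14 without 1 replicate. In all 8 alternatives of the test of spread 0 members passed, with 0 to 2 at an unadjusted p under 0.05 in edgeR. Over all genes 143 passed, against 532 with a common dispersion, 143 with DESeq2 size factors, 154 with no filter, 69 by DESeq2 dispersion outliers and 47 to 118 without 1 replicate (47 without replicate 1 and 52 without replicate 3; the cause was not tested). The galectin to C-type lectin ratio was 1.07 on CPM, 1.39 without the highest member of each class, 2.29 with the longest transcript and 2.28 to 2.47 without 1 replicate. The share of counts was 0.143% of all reads and 0.161% to 0.164% without 1 replicate. By CPM, 15 of the 17 ranks changed, and Clec12a ranked first; with the longest transcript, 11 mean TPM values moved by more than their SD. No paired analysis was possible because there is 1 group. Values of a few counts, near 0.1 CPM, are at the limit of depth, while low members reached up to 0.768 CPM (Lgals4 in replicate 2). The main test of spread did not include the low members. With no filter on low counts, 31 members were tested and 0 passed.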
